A study of Mus musculus with 36 samples.

Results

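The diaphragm of mdx mice was compared between 56 and 28 days of age, using the 6 arrays labelled as mdx diaphragm at these ages out of 36 arrays in the study. The study measured gene expression in the diaphragm, the main breathing muscle, on single-colour Affymetrix arrays in mdx and control mice at 7, 14, 23, 28, 56 and 112 days, with 3 arrays per age and genotype. The groups used here were mdx at 56 days, mdx at 28 days, control at 56 days and control at 28 days. The mdx mouse carries a point mutation of Dmd that stops production of full-length dystrophin in all tissues, while the series title calls the other mice wild type. No treatment was labelled, and strain, sex, pooling and the time of day of collection are not given in the labels. The control arrays of both ages were used to set the change in mdx beside the change that the same interval brought in control muscle. The labels do not say whether each array stands for another animal, and p-values therefore describe the spread between arrays, which may be technical. In these bulk samples, fewer cells of a type and less RNA per cell cannot be told apart.

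Without dystrophin, muscle fibres tear during contraction, die and are rebuilt from satellite cells, and connective tissue accumulates between them. In limb muscles of mdx mice an early crisis of fibre death is followed by fairly stable repair, whereas the diaphragm goes on to fibrosis. The same weeks are a time of normal growth, in which a young muscle lowers its output of collagens, elastin and cell cycle genes, gains adult fast myosin and settles into adult energy metabolism. Muscle also has its own circadian clock, in which Arntl and Clock drive the genes of their repressors, the Per, Cry and Nr1d families, and of output factors such as Dbp and Tef.

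Signals were brought to a common level per array before deposit, and were analysed as log2(signal + 32). Of 9291 probe sets tested, 881 rose (9.48%) and 548 fell (5.9%) in mdx between 28 and 56 days at an adjusted p under 0.05. Together these were 15.4% of the probe sets. In control 110 rose (1.18%) and 248 fell (2.67%), together 3.85%. The age change itself differed between the genotypes for 8 probe sets (0.0861%), 6 with a more positive change in mdx (0.0646%) and 2 with a more negative one (0.0215%). The 3 arrays of 56 days did not overlap the 3 of 28 days for 37.2% of probe sets in mdx, 23.9% with 56 days above and 13.3% below, and for 26.8% in control, 12.7% above and 14.1% below. The median log2 difference of all probe sets was 0.11 in mdx and 0.00 in control.

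The level of the signal moved with the age change in mdx, and its part in single results was not tested. Among the dimmest tertile of probe sets 274 rose and 77 fell, with a median log2 difference of 0.39, and in the brightest tertile 222 rose and 365 fell, with a median of -0.08. After quantile normalization, which gives all arrays 1 distribution and lowered the median of all probe sets in mdx by 0.12, 552 rose and 590 fell. Rises thus made up 61.7% of the calls on the deposited values and 48.3% after quantile normalization. Of 492 probe sets whose names end in _r_at, 122 rose and 10 fell in mdx, with a median of 0.58 (0.38 after quantile normalization). Rises given below on this kind include other probe sets of Col1a2, Myh4, Gstm2 and Tnfrsf1a, and Bmp2, Lcn2, Bphl, Rnf220 and Aplp2. Names ending in _f_at (110 rises, 30 falls, median 0.27) and _i_at (27 rises, 6 falls, median 0.31) also had mostly rises in mdx. Names with _at alone after the number had 576 rises and 468 falls, with a median of 0.08. Rises given below on _f_at or _i_at names include Irf7, Itga7, Prp2 and another probe set of Ighm. The part of the kind of probe set in these rises was not tested. The mdx arrays of 56 days had median signals of 723, 675 and 669.9, against 533.5, 574 and 605 in mdx at 28 days, 563, 552 and 606 in control at 56 days and 578, 556 and 575 in control at 28 days. The ratio of the 2 Gapdh control probe sets at the ends of that transcript, a sign of RNA quality, was 0.198, 0.888 and 0.128 in mdx at 56 days and 0.66, 0.105 and 0.0558 in mdx at 28 days, and 0.761, 0.541 and 0.152 in control at 56 days, against 0.244, 0.036 and 0.0578 in control at 28 days. As the probe sets are named, it is the 3′ over the 5′ signal, and its highest value on the 36 arrays was 0.971. Whether the names follow the direction of the transcript was not settled. The part of this ratio in the calls was not tested beyond a fit with it as a covariate, which is given where it ended a call. Replicate 1 of mdx at 56 days stood apart at the bright end: the median of its 200 brightest probe sets was 14511, against 27153 and 22048 in the other mdx arrays of that age. Its highest signal, 23858, was the lowest of the 36 arrays. Without this array 529 probe sets rose and 470 fell in mdx. Without replicate 1 of mdx at 28 days the counts were 207 and 205, the lowest of the 6 fits that left out 1 mdx array, and without replicate 2 of that age 496 and 303.

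**Figure D1:**
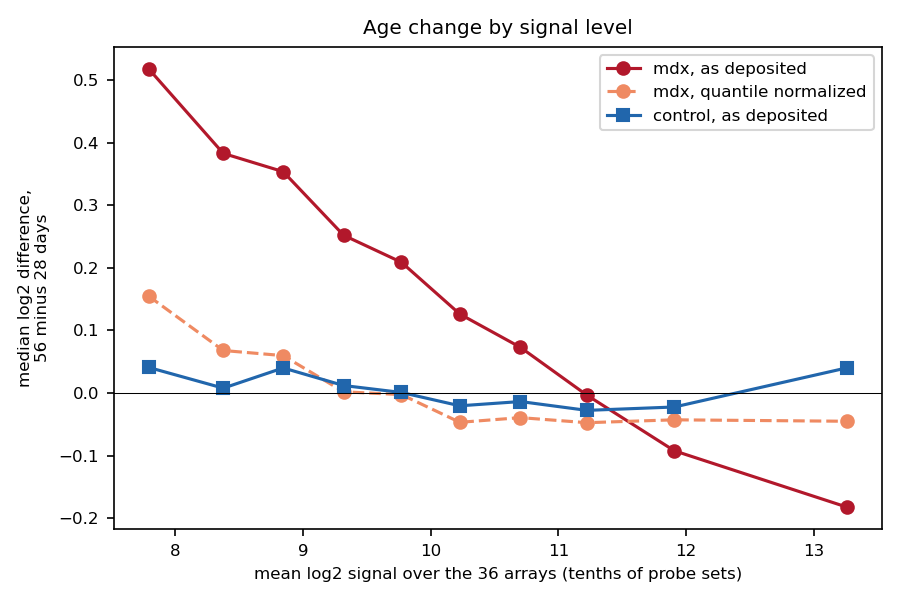
Median log2 difference between 56 and 28 days for 10 bins of the 9291 probe sets ordered by mean log2 signal over the 36 arrays. On deposited values the mdx median was 0.52 in the dimmest bin and -0.18 in the brightest, against 0.04 in both of these bins in control; quantile normalization brought the mdx medians between -0.05 and 0.15.

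The calls of the 2 genotypes overlapped in part. Of the 881 rises in mdx 25 were also called as rises in control, which is 2.84% of the mdx rises and 22.7% of the 110 control rises. Of the 548 falls in mdx 90 were also called as falls in control, or 16.4% of the mdx falls and 36.3% of the 248 control falls. One further probe set, of Ndrg4, was called in opposite directions. Without regard to calls, 689 of the 881 mdx rises and 459 of the 548 mdx falls had the same sign in control. Across all 9291 probe sets, which are not independent replicates, the log2 differences of mdx and control, which share no array, had a Pearson r of 0.334. A call in one genotype and not in the other does not show that the genotypes differed, which the difference of the age changes tests.

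**Figure D2:**
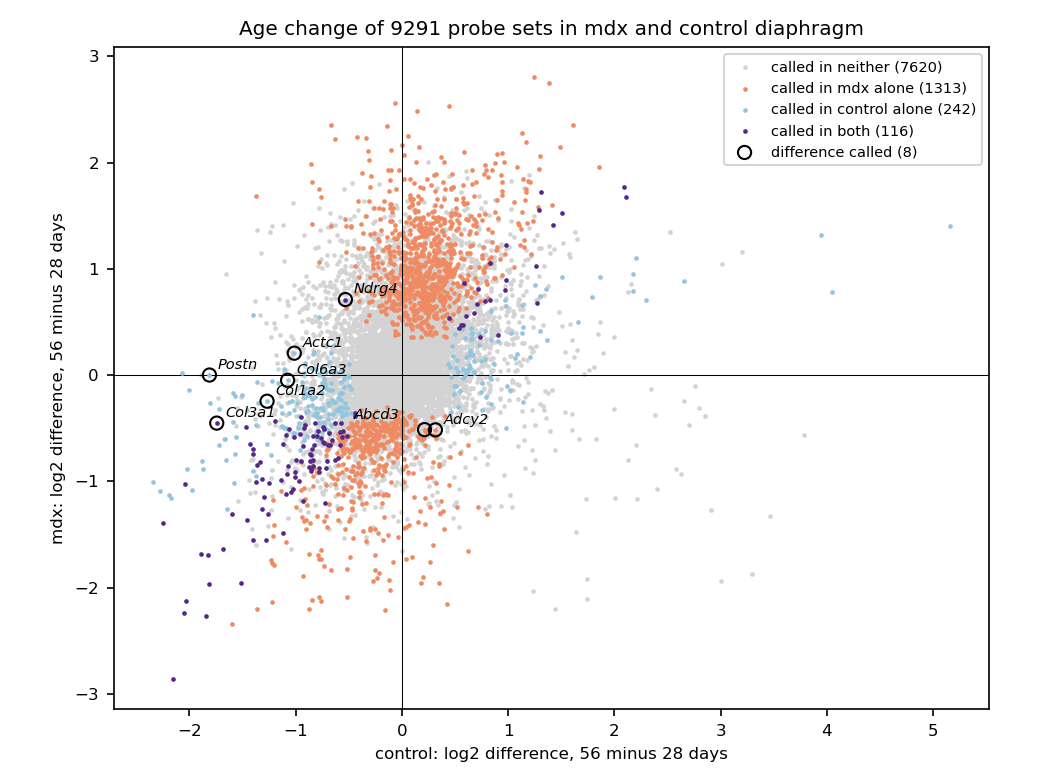
Log2 difference between 56 and 28 days in mdx (vertical axis) and control (horizontal axis), each point 1 of 9291 probe sets, coloured by its calls at adjusted p under 0.05; the 8 circled probe sets were called for the difference between genotypes. Of the circled genes 6 lie left of 0 on the control axis, and Adcy2 and Abcd3 lie right of it and below 0 on the mdx axis.

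Of the 6 genes whose age change was more positive in mdx, 4 encode matrix proteins, and all 4 fell in control between 28 and 56 days. Postn, which encodes periostin, a matrix protein of tissue under repair, read 18863, 24604 and 18659 in mdx at 56 days, against 22325, 17892 and 21632 in mdx at 28 days. In control Postn read 1413, 1385 and 1779.5 at 56 days, against 4489, 6409 and 5466 at 28 days. The mdx groups overlapped, while all control arrays of 56 days lay below those of 28 days. The log2 difference was 0.00 ± 0.16 (SE) in mdx and -1.81 ± 0.16 in control, and the change in mdx was more positive by 1.81 ± 0.23 (adjusted p = 8.19e-05). The mean signal in mdx was 13.6 times that of control at 56 days and 3.78 times at 28 days. Col3a1, the type III collagen of loose connective tissue, read 5535, 5281 and 3745 in mdx at 56 days, against 5938, 6618 and 7158 in mdx at 28 days on 1 of its probe sets. In control Col3a1 read 1268, 1376 and 1326 at 56 days, against 4085, 4595 and 4851 at 28 days. It fell in both genotypes, and by less in mdx: the log2 difference was -0.45, adjusted p = 0.0336 in mdx and -1.74 in control, with a difference of 1.29 ± 0.21 (adjusted p = 0.00286). A brighter probe set of Col3a1 gave a difference in the same direction that did not pass (0.78, adjusted p = 0.134). Another probe set gave 0.27, adjusted p = 0.369 in mdx, on the other side of 0, and fell in control (-0.72, adjusted p = 0.0382).

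Col1a2, a chain of type I collagen, read 18660, 19503 and 14517 in mdx at 56 days, against 23051, 17782 and 21477 in mdx at 28 days. In control Col1a2 read 7758, 7569.5 and 8069 at 56 days, against 17030, 19607 and 19974 at 28 days. It fell in control (log2 difference -1.27) and the mdx arrays overlapped (-0.25, adjusted p = 0.257), a difference of 1.02, adjusted p = 0.0397. A second, dimmer probe set of Col1a2 rose in mdx (1.03, adjusted p = 0.0026) and did not pass in control (0.20, adjusted p = 0.688), and its difference did not pass (0.84, adjusted p = 0.199). The name of that probe set ends in _r_at, a kind whose calls in mdx were mostly rises, as given above. Col6a3, a chain of the type VI collagen that surrounds muscle fibres, read 19898, 21480 and 14714 in mdx at 56 days, against 18114, 17799 and 21574 in mdx at 28 days. In control Col6a3 read 6223, 6149 and 7965 at 56 days, against 12594, 14353 and 15888 at 28 days. The mdx arrays overlapped and the control arrays did not, with a difference of 1.03, adjusted p = 0.0321. Actc1, the cardiac actin that young and regenerating skeletal muscle also uses, read 20535, 26021 and 24928 in mdx at 56 days, against 20244, 17912 and 23887 in mdx at 28 days. In control Actc1 read 9752, 8525 and 11706 at 56 days, against 19194, 21906 and 19075 at 28 days. It fell in control by 1.01 on the log2 scale and did not pass in mdx (0.21, adjusted p = 0.399), a difference of 1.22, adjusted p = 0.0251, and its other probe set gave 0.43, adjusted p = 0.535.

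Ndrg4, a member of the N-myc downstream regulated family, was the gene called in opposite directions. Its signals were 2791, 2446 and 2192 in mdx at 56 days, against 1279, 1437 and 1807 in mdx at 28 days. In control Ndrg4 read 663, 625 and 697 at 56 days, against 963, 935 and 1012 at 28 days. All mdx arrays of 56 days lay above those of 28 days and all control arrays of 56 days below. It rose in mdx (log2 difference 0.71 ± 0.15 (SE), adjusted p = 0.00405) and fell in control (-0.53, adjusted p = 0.0421), a difference of 1.24, adjusted p = 0.00781. Its second probe set passed in none of these, with 0.95, adjusted p = 0.0971 in mdx, 0.14, adjusted p = 0.905 in control and 0.81, adjusted p = 0.507 for the difference. The 2 genes with a more negative change in mdx were Adcy2, an adenylyl cyclase that makes cyclic AMP, and Abcd3, a transporter of fatty acids into peroxisomes. Adcy2 read 3885, 4642 and 4224 in mdx at 56 days, against 6549, 6309 and 5415 in mdx at 28 days. In control Adcy2 read 9486, 8405 and 8460.3 at 56 days, against 7327, 7429 and 6403 at 28 days. It fell in mdx (-0.51, adjusted p = 0.0071) and did not pass in control (0.32, adjusted p = 0.148), a difference of -0.83, adjusted p = 0.0397. Abcd3 read 4851, 5457 and 5327 in mdx at 56 days, against 7955, 7422 and 6973 in mdx at 28 days. In control Abcd3 read 9231, 10046 and 8937 at 56 days, against 7537, 9161 and 7679 at 28 days. It fell in mdx (-0.51, adjusted p = 0.00317) with a difference of -0.73, adjusted p = 0.0397. For both genes the mdx arrays of the 2 ages did not overlap. Col3a1, given above, lost its call in mdx without mdx replicate 3 at 56 days or mdx replicate 1 or 2 or 3 at 28 days in turn (adjusted p = 0.0605 to 0.225). Col3a1, given above, lost its call in mdx after quantile normalization (adjusted p = 0.0994). Ndrg4 lost its call in control without control replicate 1 or 2 or 3 at 56 days or control replicate 1 or 2 or 3 at 28 days in turn (adjusted p = 0.0724 to 0.155). Ndrg4 lost its call in control with the Gapdh ratio as a covariate (adjusted p = 0.301).

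The difference called for Postn held in every alternative that was run, and that of Col3a1 in all but the fit on the 12 arrays of both ages alone, which are the comparison's own arrays (adjusted p = 0.0518). On those 12 arrays the other 6 genes lost the call too (adjusted p = 0.0518 to 0.109). With the Gapdh ratio as a covariate Actc1, Col6a3, Col1a2, Adcy2 and Abcd3 lost it (adjusted p = 0.0663 to 0.0696), and without the arrays high in albumin Col6a3, Col1a2, Adcy2 and Abcd3 (adjusted p = 0.0522 to 0.0876). Col1a2, Adcy2 and Abcd3 also lost it without a filter on dim probe sets (adjusted p = 0.0617) and with the replicate number as a block (adjusted p = 0.062), and Col6a3 after quantile normalization (adjusted p = 0.0594). The same 6 lost the call when certain single arrays were left out, with the size changing little. Ndrg4 lost it without mdx replicate 1 at 28 days (log2 1.13, adjusted p = 0.0622). Without mdx replicate 1 or 2 of 56 days, or 1 or 2 of 28 days, in turn, Col6a3, Col1a2, Adcy2 and Abcd3 all lost it (adjusted p = 0.061 to 0.137), and Actc1 in 3 of these 4 fits (adjusted p = 0.0671 to 0.11), the exception being replicate 1 at 56 days. Without control replicate 1 or 2 of 56 days Actc1, Col6a3, Col1a2, Adcy2 and Abcd3 lost it (adjusted p = 0.0945 to 0.127). Without control replicate 3 of 28 days the same 5 genes lost it (adjusted p = 0.0547 to 0.126), without replicate 2 all of them but Abcd3 (adjusted p = 0.0581 to 0.0643), and without replicate 1 Col1a2, Adcy2 and Abcd3 (adjusted p = 0.0511 to 0.125).

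**Figure D3:**
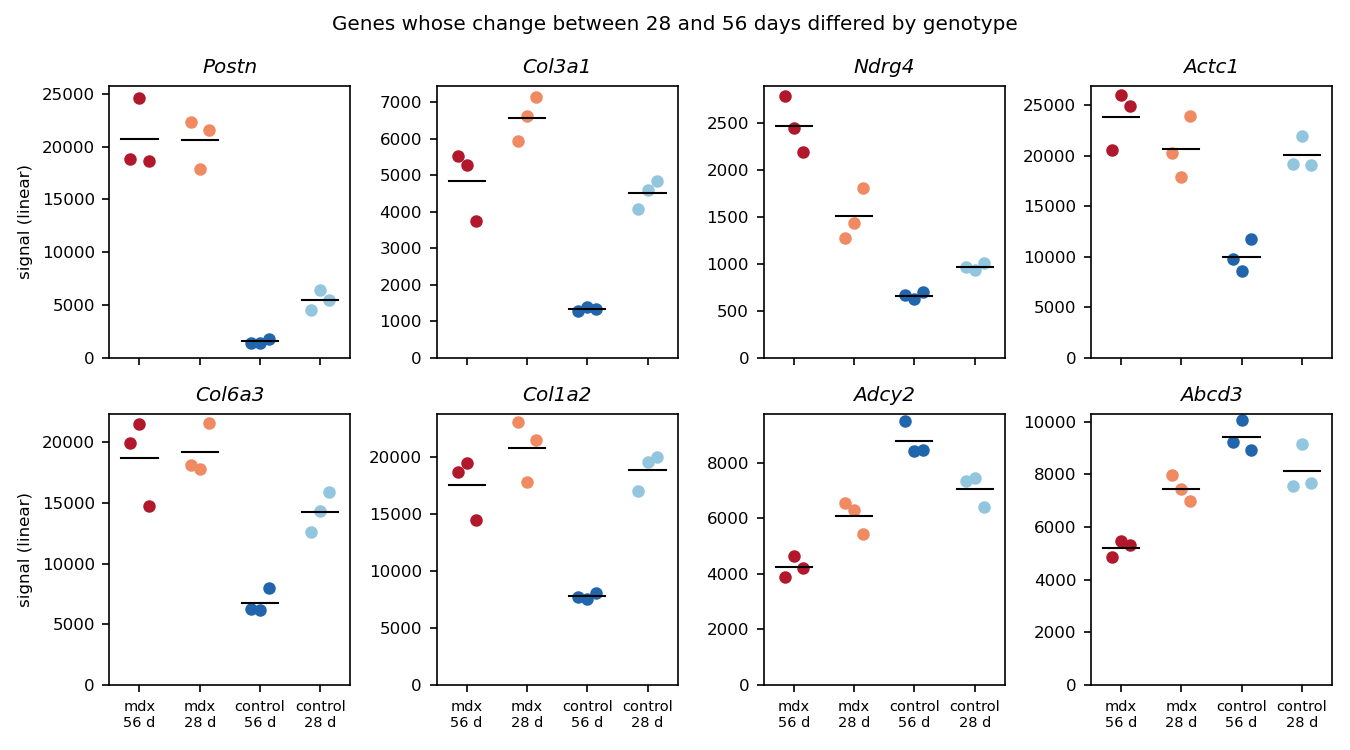
Linear signal of the 8 genes whose change between 28 and 56 days differed between genotypes, 3 arrays (points) and their mean (line) per group. Postn read 18659 to 24604 in mdx at 56 days and 17892 to 22325 at 28 days while all control arrays of 56 days lay at 1385 to 1780; Ndrg4 was higher at 56 days in mdx and lower in control.

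Of 16 fibrillar collagens and collagen-processing genes 1 rose and 1 fell in mdx, and 1 rose and 7 fell in control, where 2.67% of all probe sets fell. Over the list the median log2 difference was -0.21 in mdx (-0.04 after quantile normalization), against -0.52 in control, and the median of the difference was 0.46 (0.48 after quantile normalization). Over all 25 probe sets of these genes the median in mdx had the other sign, at 0.05, against -0.53 in control. Loxl1, a lysyl oxidase that cross-links elastin, rose in mdx and in control, and read 1319, 1492 and 1553 in mdx at 56 days, against 395, 848 and 654 in mdx at 28 days (log2 difference 1.22 ± 0.29 (SE), adjusted p = 0.00714), with 0.98 (adjusted p = 0.0497) in control. P4ha1, a subunit of prolyl 4-hydroxylase, read 949, 1144 and 1018 in mdx at 56 days, against 1211, 1548 and 1787 in mdx at 28 days and fell (-0.52, adjusted p = 0.0481). Col5a2, a minor chain that sets fibril width, fell in control (-1.06, adjusted p = 2.14e-05) and gave -0.25, adjusted p = 0.223 in mdx. Col5a1, Lox and the collagen chaperone Serpinh1 also fell in control, while their log2 differences in mdx, -0.17, -0.39 and -0.36, against -0.75, -0.79 and -0.48 in control, did not pass. A second Lox probe set gave 0.74, adjusted p = 0.19 in mdx and 0.26, adjusted p = 0.804 in control. Loxl1 lost its call without mdx replicate 1 at 28 days (adjusted p = 0.0713). P4ha1 lost its call without mdx replicate 1 or 2 or 3 at 56 days or mdx replicate 2 or 3 at 28 days in turn (adjusted p = 0.0601 to 0.173). P4ha1 lost its call with the Gapdh ratio as a covariate (adjusted p = 0.0842). Lox, Loxl1 and Serpinh1 lost their calls in control without control replicate 2 at 56 days or control replicate 1 or 2 at 28 days in turn (adjusted p = 0.0565 to 0.185). Lox and Loxl1 lost their calls in control without control replicate 1 at 56 days or control replicate 3 at 28 days in turn (adjusted p = 0.073 to 0.181). Loxl1 and Serpinh1 lost their calls in control without control replicate 3 at 56 days (adjusted p = 0.074 to 0.123). Loxl1 and Serpinh1 lost their calls in control after quantile normalization (adjusted p = 0.0513 to 0.0757). Col5a1, Lox, Loxl1 and Serpinh1 lost their calls in control with the Gapdh ratio as a covariate (adjusted p = 0.0542 to 0.276).

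Of 17 matricellular proteins and proteoglycans 0 rose and 2 fell in mdx, where 5.9% of all probe sets fell. In control 0 rose and 8 fell, against 2.67% of all probe sets that fell. The list had a median log2 difference of -0.16 in mdx (-0.21 after quantile normalization), against -0.47 in control. Fmod, the proteoglycan fibromodulin, read 2676, 2001 and 1255 in mdx at 56 days, against 4933, 4352 and 3761 in mdx at 28 days and fell (log2 difference -1.18 ± 0.25 (SE), adjusted p = 0.00393). Sparc, a collagen-binding matricellular protein, read 12125, 15000 and 13160 in mdx at 56 days, against 21102, 16223 and 17730 in mdx at 28 days and fell in mdx (-0.45, adjusted p = 0.0411) and in control (-0.82, adjusted p = 0.00135). C1qtnf3, a secreted relative of adiponectin, read 4797, 3336 and 3635 in mdx at 56 days, against 4149.5, 3361 and 4739 in mdx at 28 days. In control C1qtnf3 read 299, 335 and 329.8 at 56 days, against 909, 773 and 958 at 28 days. The mdx arrays overlapped, the control arrays did not, and the difference missed the threshold (1.30, adjusted p = 0.0575). Tnc, the repair-associated tenascin C, likewise gave -0.50, adjusted p = 0.239 in mdx and fell in control (-1.11, adjusted p = 0.0264), and Ccn4, a Wnt-induced matrix protein, gave -0.18, adjusted p = 0.686 in mdx and fell in control (-1.51, adjusted p = 0.00166), a call that the control arrays alone did not give (adjusted p = 0.0652). Genes that passed in neither genotype included Fn1, fibronectin (0.23 in mdx, -0.11 in control), and Bgn, biglycan (-0.04 in mdx, -0.21 in control). Sparc lost its call without mdx replicate 1 or 3 at 56 days or mdx replicate 1 or 3 at 28 days in turn (adjusted p = 0.0618 to 0.211). Sparc lost its call after quantile normalization (adjusted p = 0.172). Tnc lost its call in control without control replicate 1 or 2 or 3 at 56 days or control replicate 1 or 3 at 28 days in turn (adjusted p = 0.0744 to 0.133). Ccn4 and Tnc lost their calls in control with the Gapdh ratio as a covariate (adjusted p = 0.0573 to 0.167).

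Basement membrane and microfibril genes, which form the sheath around fibres and vessels and the elastic fibres, included many falls in both genotypes. Of 22 members 0 rose and 8 fell in mdx, and 0 rose and 12 fell in control, against 5.9% and 2.67% of all probe sets that fell. The median log2 difference of the list was -0.35 in mdx (-0.25 after quantile normalization), against -0.76 in control. Eln, which encodes elastin, read 11478, 14333 and 12505 in mdx at 56 days, against 22400, 18368 and 23385 in mdx at 28 days. In control Eln read 11046, 7881 and 10046 at 56 days, against 26824, 22512 and 27052 at 28 days. It fell in mdx (-0.74, adjusted p = 0.0113) and in control (-1.40, adjusted p = 2.14e-05), and a dimmer probe set of Eln fell further in both (-2.13 in mdx, -2.03 in control). Nid2, the laminin-binding nidogen 2, read 493, 575 and 536 in mdx at 56 days, against 1201, 952 and 864 in mdx at 28 days (-0.86, adjusted p = 0.0155). Lama4, a laminin chain of vessels, read 2877, 2254 and 2352 in mdx at 56 days, against 3819.7, 3603 and 3544 in mdx at 28 days (-0.55, adjusted p = 0.0205). Both also fell in control, at -0.87 and -0.96. Col4a1, the main collagen of basement membranes, and its relative Col15a1 fell in mdx (-0.47, adjusted p = 0.0481, and -0.43, adjusted p = 0.0408) and in control (-0.91 and -1.20). Col6a1 fell in mdx (-0.40, adjusted p = 0.0325) and in control (-0.95). Fbln2, fibulin 2 (-0.62, adjusted p = 0.0107), and Fbn2, a fibrillin of young tissue (-1.43, adjusted p = 0.0334), fell in mdx and did not pass in control, at -0.40 and 0.04. The median of the difference between genotypes over the list was 0.44 (0.49 after quantile normalization), against 0.12 over all probe sets. Col15a1, Col4a1, Col6a1, Eln, Fbn2, Lama4 and Nid2 lost their calls without mdx replicate 1 at 28 days (adjusted p = 0.0549 to 0.21). Col15a1, Col4a1, Col6a1, Fbln2, Fbn2 and Lama4 lost their calls without mdx replicate 3 at 56 days (adjusted p = 0.051 to 0.183). Col15a1, Col4a1, Fbn2 and Lama4 lost their calls without mdx replicate 2 at 28 days (adjusted p = 0.0503 to 0.0938). Col15a1, Col6a1 and Lama4 lost their calls without mdx replicate 2 at 56 days (adjusted p = 0.0737 to 0.0863). Col4a1, Col6a1 and Fbn2 lost their calls without mdx replicate 3 at 28 days (adjusted p = 0.0602 to 0.102). Col4a1 lost its call without mdx replicate 1 at 56 days (adjusted p = 0.143). Col15a1, Col4a1 and Col6a1 lost their calls after quantile normalization (adjusted p = 0.0982 to 0.392). Nid2 lost its call in control without control replicate 1 or 2 or 3 at 56 days or control replicate 2 or 3 at 28 days in turn (adjusted p = 0.0578 to 0.158). Nid2 lost its call in control after quantile normalization (adjusted p = 0.059). Nid2 lost its call in control with the Gapdh ratio as a covariate (adjusted p = 0.111).

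Several genes of the circadian clock were called in mdx. The labels do not give the time of day of collection, and its part in these changes was not tested. Of 14 clock genes 6 rose and 1 fell in mdx, and 0 rose and 0 fell in control, against 9.48% and 5.9% of all probe sets that rose and fell in mdx. Over the list the median log2 difference was 0.59 in mdx (0.46 after quantile normalization), against 0.10 in control. Dbp, a clock-driven transcription factor, read 1134, 1281 and 1297 in mdx at 56 days, against 384, 513 and 288 in mdx at 28 days (log2 difference 1.60 ± 0.43 (SE), adjusted p = 0.0141). All 3 arrays of 56 days lay above those of 28 days, whereas its control arrays overlapped (616, 2147 and 352 at 56 days, 913, 572 and 752 at 28 days). Tef, a factor of the same family as Dbp, read 4439.7, 3868 and 3870.2 in mdx at 56 days, against 2966, 1403 and 1903 in mdx at 28 days (log2 difference 1.01 ± 0.26 (SE), adjusted p = 0.0107). Nr1d1 and Nr1d2, the REV-ERB repressors of Arntl, also rose. Nr1d1 read 4975, 4077 and 4075 in mdx at 56 days, against 2558, 2883 and 2111 in mdx at 28 days (0.79, adjusted p = 0.0131), and Nr1d2 read 3734, 3143 and 3710.1 in mdx at 56 days, against 1703, 2227 and 1662 in mdx at 28 days (0.92, adjusted p = 0.0226). The repressors Per3 (1278, 1433 and 1048 at 56 days, 505, 819 and 754 at 28 days; 0.84, adjusted p = 0.0195) and Cry2 (1028, 991 and 1018 at 56 days, 382, 436 and 728 at 28 days; 0.98, adjusted p = 0.0221) rose without overlap. Nfil3, which binds the same sites as Dbp and Tef and represses, read 695, 567 and 663 in mdx at 56 days, against 1428, 1575 and 1359 in mdx at 28 days and fell (log2 difference -1.14 ± 0.29 (SE), adjusted p = 0.00943). A second probe set of Nfil3 did not pass (-0.16, adjusted p = 0.781).

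The remaining 7 clock genes did not pass in mdx. Per2 read 285, 189 and 242 in mdx at 56 days, against 32.3, 124 and 162 in mdx at 28 days, without overlap (1.10, adjusted p = 0.0525), and Arntl, the activator, read 1219.6, 1163 and 951 in mdx at 56 days, against 1716, 1648 and 1388 in mdx at 28 days, also without overlap (-0.50, adjusted p = 0.152). Clock, Per1, Cry1, Bhlhe40 and Rora gave log2 differences of 0.38, -0.67, -0.16, 0.25 and 0.04. By limma, 0 of the 14 passed in control, where Per1 came nearest (-1.09, adjusted p = 0.0629), and 0 of the 14 passed for the difference of the age changes, whose highest value was 1.51 ± 0.61 for Dbp (adjusted p = 0.271). Cry2, Dbp, Nr1d2 and Per3 lost their calls without mdx replicate 1 at 28 days (adjusted p = 0.055 to 0.141). Cry2, Nr1d1, Nr1d2 and Per3 lost their calls without mdx replicate 1 at 56 days (adjusted p = 0.0504 to 0.0614). Cry2 and Nr1d2 lost their calls without mdx replicate 3 at 56 days (adjusted p = 0.0538 to 0.0647). Cry2 and Per3 lost their calls without mdx replicate 2 at 56 days (adjusted p = 0.0503 to 0.076). Cry2 and Tef lost their calls without mdx replicate 2 at 28 days (adjusted p = 0.0746 to 0.0779). Nr1d2 lost its call without mdx replicate 3 at 28 days (adjusted p = 0.0613). Cry2 and Per3 lost their calls after quantile normalization (adjusted p = 0.0536 to 0.0567).

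The proximal promoters of 5 of the called clock genes are printed because they hold letters that match known clock elements. Each runs from 250 bases before to 50 after the start of the gene, in 300 bases, 5′ to 3′ on the strand of the gene, from RefSeq on GRCm38.p6. Capitals mark matches on either strand to the E-box CACGTG, bound by Arntl and Clock, its variant CACGTT, the D-box TTATGNAA, bound by Dbp, Tef and Nfil3, and TAGGTCA, the core of the element bound by Nr1d1, Nr1d2 and Rora. No printed matches overlapped each other. The Tef promoter is chr15:81802423-81802722, plus strand. The Cry2 promoter is chr2:92434020-92434319, minus strand. The Nr1d1 promoter is chr11:98775328-98775627, minus strand. The Per3 promoter is chr4:151044616-151044915, minus strand. The Nfil3 promoter is chr13:52980990-52981289, minus strand.
Tef: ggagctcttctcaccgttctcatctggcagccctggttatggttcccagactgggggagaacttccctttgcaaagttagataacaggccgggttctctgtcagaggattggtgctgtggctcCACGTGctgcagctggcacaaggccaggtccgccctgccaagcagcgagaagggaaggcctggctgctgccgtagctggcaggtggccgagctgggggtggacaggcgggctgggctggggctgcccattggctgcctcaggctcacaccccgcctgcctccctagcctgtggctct
Cry2: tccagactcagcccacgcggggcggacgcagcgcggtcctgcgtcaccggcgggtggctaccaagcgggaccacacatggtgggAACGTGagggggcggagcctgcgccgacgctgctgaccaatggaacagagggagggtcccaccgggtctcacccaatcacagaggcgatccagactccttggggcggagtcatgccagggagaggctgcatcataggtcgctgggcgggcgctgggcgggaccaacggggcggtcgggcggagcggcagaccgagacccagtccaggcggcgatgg
Nr1d1: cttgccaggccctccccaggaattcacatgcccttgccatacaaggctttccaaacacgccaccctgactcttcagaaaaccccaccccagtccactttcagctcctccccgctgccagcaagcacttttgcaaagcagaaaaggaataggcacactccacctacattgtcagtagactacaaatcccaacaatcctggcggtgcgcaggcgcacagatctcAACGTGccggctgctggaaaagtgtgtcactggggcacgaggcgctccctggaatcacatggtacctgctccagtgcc
Per3: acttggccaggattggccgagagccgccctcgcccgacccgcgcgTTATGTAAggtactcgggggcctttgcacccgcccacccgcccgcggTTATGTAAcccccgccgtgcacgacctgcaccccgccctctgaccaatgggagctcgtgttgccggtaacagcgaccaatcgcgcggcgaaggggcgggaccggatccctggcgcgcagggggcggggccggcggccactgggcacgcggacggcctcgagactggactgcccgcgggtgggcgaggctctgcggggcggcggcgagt
Nfil3: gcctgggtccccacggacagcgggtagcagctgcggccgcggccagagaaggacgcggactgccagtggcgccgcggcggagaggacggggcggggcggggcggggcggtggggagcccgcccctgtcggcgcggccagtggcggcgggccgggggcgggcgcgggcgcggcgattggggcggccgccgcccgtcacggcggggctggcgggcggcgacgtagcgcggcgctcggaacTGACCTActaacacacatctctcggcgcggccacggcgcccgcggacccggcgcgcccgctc
The match in Tef, CACGTG, begins at -127 from the start site, and another start of Tef has 1 at -138. The variant CACGTT is matched at -166 in Cry2 and at -28 in Nr1d1, both as AACGTG on the gene's strand. Per3 holds the D-box at -205 and -158, and Nfil3 holds TGACCTA, the reverse complement of TAGGTCA, at -12. In 32851 promoters of this length, 7.15% hold CACGTG, 4.68% CACGTT, 3.38% TTATGNAA and 2.61% TAGGTCA. The windows of Dbp and Nr1d2 hold none of these letters. A match is a description of letters and not of binding, and genes that did not pass hold matches too, such as Per1 and Cry1.

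**Figure D4:**
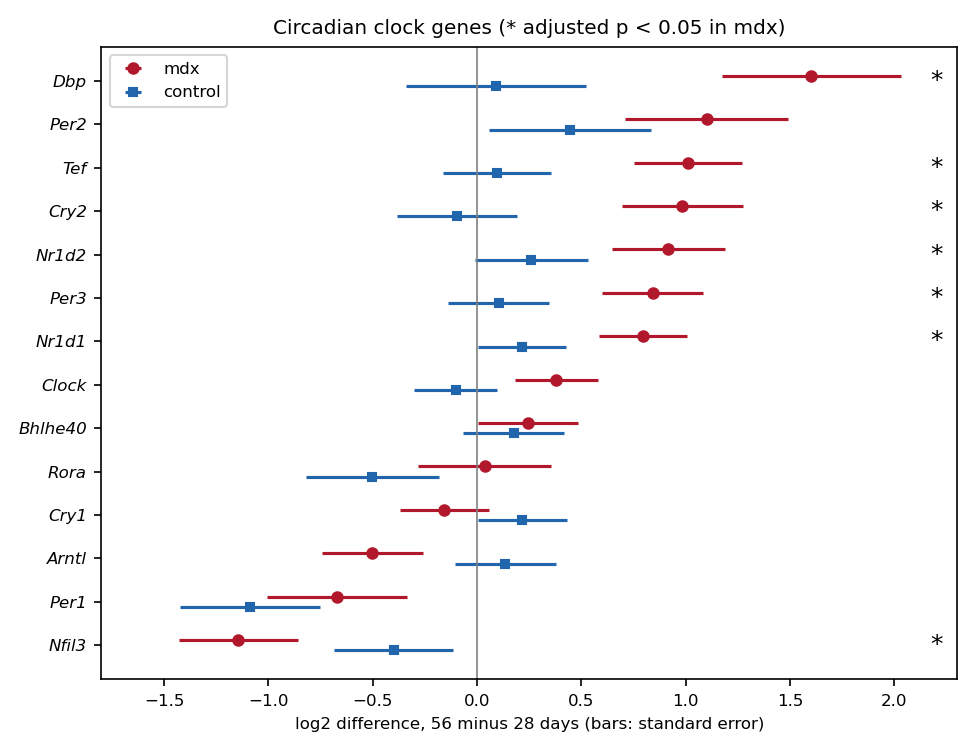
Log2 difference between 56 and 28 days of the 14 clock genes in mdx (circles) and control (squares), with standard errors as bars; stars mark an adjusted p under 0.05 in mdx. Dbp lies highest in mdx, at 1.60, and Nfil3 lowest, at -1.14, while the control points of these genes lie at 0.09 and -0.40.

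Lists of energy metabolism had medians below 0 in mdx and above 0 in control on deposited values. After quantile normalization the control medians of glycogen and glucose use, the tricarboxylic acid cycle and oxidative phosphorylation were 0.01, 0.08 and 0.01. Of 25 genes of glycogen and glucose use 0 rose and 5 fell in mdx, where 5.9% of all probe sets fell. In control 1 rose and 1 fell, against 1.18% and 2.67% of all probe sets. The list had a median log2 difference of -0.31 in mdx (-0.31 after quantile normalization), against 0.31 in control. Hk1, a hexokinase that traps glucose in the cell, read 4972, 6051 and 6176 in mdx at 56 days, against 29540, 17928 and 20861 in mdx at 28 days. In control Hk1 read 5381, 5424 and 7898 at 56 days, against 21515, 16590 and 15237 at 28 days. It fell in both genotypes without overlap (log2 difference -1.96 ± 0.28 (SE), adjusted p = 0.000207 in mdx, and -1.52, adjusted p = 0.0015 in control). Fbp2, the muscle fructose bisphosphatase that reverses a step of glycolysis, read 730.4, 175 and 355 in mdx at 56 days, against 1088, 1772 and 1333 in mdx at 28 days (log2 difference -1.83 ± 0.38 (SE), adjusted p = 0.00317), and gave -0.25 (adjusted p = 0.8) in control. The glycolytic enzymes Pgam2 and Pgk1 fell in mdx (-0.57, adjusted p = 0.0393, and -0.56, adjusted p = 0.035), as did Gpd1, the glycerol phosphate dehydrogenase (-0.71, adjusted p = 0.0453), whose second probe set did not pass on the other side of 0 (0.76, adjusted p = 0.398). Aldoa, aldolase, read 4431, 41018 and 22149 in mdx at 56 days, against 29376, 11302 and 19013 in mdx at 28 days, and the low value of replicate 1 at 56 days is on the array whose brightest probe sets were low.

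Of 32 tricarboxylic acid cycle and fatty acid oxidation genes 2 rose and 7 fell in mdx, against 9.48% and 5.9% of all probe sets. In control 3 rose and 0 fell, against 1.18% and 2.67% of all probe sets. The median log2 difference of the list was -0.20 in mdx (-0.13 after quantile normalization), against 0.25 in control. Slc25a20, which carries acylcarnitines into mitochondria, read 4794, 4975 and 6659 in mdx at 56 days, against 8409, 9902 and 7589.8 in mdx at 28 days. In control Slc25a20 read 12766, 14134 and 12145 at 56 days, against 11458, 10730 and 11369 at 28 days. Its mdx arrays fell without overlap (log2 difference -0.66 ± 0.14 (SE), adjusted p = 0.00347), its control arrays were higher at 56 days without overlap (0.22, adjusted p = 0.452), and the difference missed the threshold (-0.88, adjusted p = 0.0573). Decr1 and Eci1, which prepare unsaturated fatty acids for oxidation, fell (-0.87, adjusted p = 0.00663, and -0.56, adjusted p = 0.00933), as did Crat, carnitine acetyltransferase (-0.69, adjusted p = 0.00736), and Ogdh, a subunit of the oxoglutarate dehydrogenase (-0.44, adjusted p = 0.0118). Suclg1, of the same cycle (-0.45, adjusted p = 0.0182), and Echs1, of fatty acid oxidation (-0.56, adjusted p = 0.041), also fell. The 2 rises were Mdh1, the cytosolic malate dehydrogenase, which read 1534, 1606 and 1602 in mdx at 56 days, against 615, 704 and 1113 in mdx at 28 days (0.98, adjusted p = 0.0155), and Acads, a short-chain dehydrogenase (0.89, adjusted p = 0.0235), whose other probe set did not pass (-0.01, adjusted p = 0.974). Dimmer probe sets of Idh3g (1.37, adjusted p = 0.0302) and Etfb (0.83, adjusted p = 0.0261) also rose in mdx. Over all 38 probe sets of the list 4 rose and 7 fell in mdx. The 3 rises in control were Cd36, a fatty acid transporter (control 0.84, adjusted p = 0.00748; -0.03 in mdx), Pdk4, which spares glucose (control 0.62, adjusted p = 0.0403; 0.03 in mdx), and Etfa, an electron carrier (control 0.52, adjusted p = 0.0426; 0.15 in mdx). Of 39 subunits of oxidative phosphorylation 0 rose and 1 fell in mdx, and 0 rose and 0 fell in control, and the fall was Ndufa2, of complex I (-0.70, adjusted p = 0.0228). Counting all 51 probe sets of these subunits, 2 rose and 1 fell in mdx. Over the list the median log2 difference was -0.08 in mdx (-0.03 after quantile normalization), against 0.26 in control. Quantile normalization brought the median of the difference between genotypes to -0.32, -0.13 and -0.12 for glycogen and glucose, tricarboxylic acid cycle and oxidative phosphorylation, against -0.55, -0.47 and -0.43 on deposited values. Without mdx replicate 1 at 56 days the medians in mdx were -0.18, -0.15 and 0.10. Acads, Crat, Decr1, Echs1, Gpd1, Mdh1, Ndufa2, Ogdh, Pgam2, Pgk1 and Suclg1 lost their calls without mdx replicate 1 at 28 days (adjusted p = 0.0572 to 0.255). Acads, Echs1, Gpd1 and Mdh1 lost their calls without mdx replicate 2 at 28 days (adjusted p = 0.0579 to 0.17). Acads, Echs1, Gpd1 and Suclg1 lost their calls without mdx replicate 2 at 56 days (adjusted p = 0.0647 to 0.207). Echs1, Ndufa2, Pgam2 and Pgk1 lost their calls without mdx replicate 1 at 56 days (adjusted p = 0.143 to 0.191). Acads and Gpd1 lost their calls without mdx replicate 3 at 56 days (adjusted p = 0.054 to 0.133). Pgam2 and Pgk1 lost their calls without mdx replicate 3 at 28 days (adjusted p = 0.0538 to 0.0637). Echs1, Gpd1, Ndufa2, Ogdh and Suclg1 lost their calls after quantile normalization (adjusted p = 0.0588 to 0.312). Etfa and Pdk4 lost their calls in control without control replicate 1 or 2 or 3 at 56 days or control replicate 1 or 2 or 3 at 28 days in turn (adjusted p = 0.0507 to 0.176). Etfa and Pdk4 lost their calls in control after quantile normalization (adjusted p = 0.209 to 0.245). Cd36, Etfa and Pdk4 lost their calls in control with the Gapdh ratio as a covariate (adjusted p = 0.0691 to 0.371).

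Fibre-type genes passed in shares near those of all probe sets, which were 15.4% in mdx and 3.85% in control. Of 18 adult fast fibre genes 1 rose and 2 fell in mdx, and 1 rose and 0 fell in control, and of 12 slow fibre genes 0 rose and 2 fell in mdx, and 0 rose and 0 fell in control. Myh4, the myosin of the fastest fibres, read 15712, 21913 and 21951 in mdx at 56 days, against 9144, 12046 and 15675 in mdx at 28 days. In control Myh4 read 28715, 34035 and 29197 at 56 days, against 13629, 16481 and 22617 at 28 days. It rose in mdx (0.71, adjusted p = 0.0373) and in control (0.83, adjusted p = 0.0382), and a second probe set also rose in mdx (1.20, adjusted p = 0.0348) but gave -0.37, adjusted p = 0.697 in control. Myl3, the slow and ventricular myosin light chain, read 7876, 6739 and 7488 in mdx at 56 days, against 20403, 16274 and 16858 in mdx at 28 days (log2 difference -1.27 ± 0.16 (SE), adjusted p = 8.48e-05). Tnnc1, the slow troponin C, read 11007, 11132 and 12897 in mdx at 56 days, against 27882, 15578 and 25510 in mdx at 28 days (log2 difference -0.93 ± 0.20 (SE), adjusted p = 0.00425). Both slow genes fell in mdx without overlap and did not pass in control, at -0.47 and -0.38. The other falls were Tpm1, an alpha tropomyosin (-0.67, adjusted p = 0.0351), and Pgam2, given above. Over the 9 muscle identity genes the summed signal spanned 84744 to 226102 in mdx at 56 days, against 87242 to 159139 at 28 days. In control these markers of the labelled tissue summed to 182411 to 262781 at 56 days, against 97061 to 216121 at 28 days, so they were present in all 4 groups. Within that list Tnnt3, the fast troponin T, read 19903, 62535 and 37361 in mdx at 56 days, against 43769, 22304 and 33298 in mdx at 28 days, and Ckmt2, the mitochondrial creatine kinase, read 16794, 31639 and 32530 in mdx at 56 days, against 40226, 20220 and 33394 in mdx at 28 days, with overlap in both. Without mdx replicate 1 at 56 days the median of the fast list was 0.33, against -0.14 with it. Myh4 and Tpm1 lost their calls without mdx replicate 2 or 3 at 56 days or mdx replicate 1 or 2 at 28 days in turn (adjusted p = 0.0635 to 0.239). Tpm1 lost its call without mdx replicate 3 at 28 days (adjusted p = 0.0569). Tpm1 lost its call with the Gapdh ratio as a covariate (adjusted p = 0.0528). Myh4 lost its call in control without control replicate 1 or 2 or 3 at 56 days or control replicate 1 or 2 at 28 days in turn (adjusted p = 0.076 to 0.193). Myh4 lost its call in control after quantile normalization (adjusted p = 0.132). Myh4 lost its call in control with the Gapdh ratio as a covariate (adjusted p = 0.0893).

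Genes of regenerating fibres passed in 2 of 19 members in mdx, where 15.4% of all probe sets passed. Of the list 1 rose and 1 fell in mdx, and 0 rose and 2 fell in control, with a median log2 difference of 0.00 in mdx (-0.05 after quantile normalization). Myh3, the embryonic myosin, read 6456, 6518 and 5695 in mdx at 56 days, against 8591, 6372 and 11058 in mdx at 28 days. In control Myh3 read 96.4, 162 and 140.3 at 56 days, against 93.9, 138 and 208 at 28 days. Myh8, the perinatal myosin, read 5391, 3624 and 4470 in mdx at 56 days, against 6612, 5307 and 6955 in mdx at 28 days. In control Myh8 read 312, 253 and 298 at 56 days, against 385, 445 and 391 at 28 days. At each age every mdx array of both genes lay far above every control array, and the age change did not pass in either genotype. Chrna1, the muscle acetylcholine receptor subunit, gave -0.16, adjusted p = 0.528 in mdx, and Ncam1, a surface marker of regenerating fibres, gave 0.28, adjusted p = 0.303. The gene that fell was Ckb, the creatine kinase of embryonic muscle and brain, at 4664, 4946 and 3461 in mdx at 56 days, against 8738, 8436 and 11191 in mdx at 28 days (log2 difference -1.12 ± 0.18 (SE), adjusted p = 0.000729). Des, desmin, rose, at 5814, 6201 and 5692 in mdx at 56 days, against 4465, 3576 and 4196 in mdx at 28 days (0.53, adjusted p = 0.0428). Igf2, a growth factor of regeneration, read 948, 32124 and 21223 in mdx at 56 days, against 22592, 10507 and 10911 in mdx at 28 days, and the low value again belongs to replicate 1 at 56 days. Myl4, the embryonic light chain, and Nes, nestin, gave -0.26 and -0.29 in mdx, which did not pass, and fell in control (-0.99, adjusted p = 0.0228, and -0.88, adjusted p = 0.00396). A second Myl4 probe set lay on the other side of 0 in mdx (0.57, adjusted p = 0.0662) and did not pass in control (-0.33, adjusted p = 0.451). Des lost its call without mdx replicate 1 or 2 or 3 at 56 days or mdx replicate 1 or 2 or 3 at 28 days in turn (adjusted p = 0.0639 to 0.156). Des lost its call with the Gapdh ratio as a covariate (adjusted p = 0.0739). Myl4 lost its call in control without control replicate 2 or 3 at 56 days or control replicate 1 or 2 or 3 at 28 days in turn (adjusted p = 0.0533 to 0.116). Myl4 and Nes lost their calls in control with the Gapdh ratio as a covariate (adjusted p = 0.0608 to 0.0654).

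Of 16 muscle growth and atrophy factors, which include the insulin-like growth factor system, 1 rose and 5 fell in mdx, and 0 rose and 4 fell in control. The shares over all probe sets were 9.48% rising and 5.9% falling in mdx, and 1.18% and 2.67% in control. Igf1, which drives muscle growth, read 6953, 5280 and 5493 in mdx at 56 days, against 2232, 2799 and 3099 in mdx at 28 days. In control Igf1 read 3247, 3297 and 4266 at 56 days, against 2827, 3036 and 3534 at 28 days. It rose in mdx without overlap (log2 difference 1.12 ± 0.26 (SE), adjusted p = 0.00626) and gave 0.20 (adjusted p = 0.773) in control, and the difference did not pass (0.92, adjusted p = 0.257). A second probe set of Igf1 went the other way and did not pass (-0.56, adjusted p = 0.133). Among binding proteins, Igfbp4 read 2194, 1554 and 1879.6 in mdx at 56 days, against 4287, 3625 and 3556 in mdx at 28 days (-1.02, adjusted p = 0.00711), Igfbp3 read 823, 569 and 1416 in mdx at 56 days, against 1428, 1884 and 2151 in mdx at 28 days (-1.01, adjusted p = 0.0145), and Igfbp2 read 813, 628 and 616 in mdx at 56 days, against 1199.8, 1334 and 1387 in mdx at 28 days (-0.91, adjusted p = 0.0271). All 3 fell in mdx, and their control values were -0.63 (adjusted p = 0.147), -1.25 (adjusted p = 0.00705) and -0.79 (adjusted p = 0.109). A second probe set of Igfbp4 went the other way without passing (0.69, adjusted p = 0.0601). The transcription factors Cebpb and Cebpd, induced by glucocorticoids and inflammation, fell in mdx (-0.69, adjusted p = 0.0122, and -0.65, adjusted p = 0.0195) and in control (-0.84 and -1.43). Cebpb, Cebpd, Igfbp2 and Igfbp3 lost their calls without mdx replicate 2 at 56 days (adjusted p = 0.061 to 0.1). Cebpb and Igfbp2 lost their calls without mdx replicate 3 at 56 days (adjusted p = 0.0533 to 0.0849). Cebpd and Igfbp2 lost their calls without mdx replicate 2 at 28 days (adjusted p = 0.0722 to 0.0843). Igfbp2 and Igfbp3 lost their calls without mdx replicate 3 at 28 days (adjusted p = 0.0507 to 0.0626). Cebpd lost its call without mdx replicate 1 at 56 days (adjusted p = 0.0753). Igfbp2 lost its call without mdx replicate 1 at 28 days (adjusted p = 0.0724). Cebpb lost its call after quantile normalization (adjusted p = 0.0551). Cebpb and Igfbp3 lost their calls in control with the Gapdh ratio as a covariate (adjusted p = 0.0705 to 0.156).

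Of 22 genes of the TGF-beta pathway, which drives fibrosis, 2 rose and 0 fell in mdx, and 0 rose and 1 fell in control. Over all probe sets 9.48% rose and 5.9% fell in mdx, and 1.18% rose and 2.67% fell in control. The members of this pathway had a median log2 difference of 0.23 in mdx (0.10 after quantile normalization), against -0.10 in control. Smad7, an inhibitor that the pathway induces on itself, read 1966, 1303 and 1594 in mdx at 56 days, against 609.8, 1054 and 816 in mdx at 28 days (log2 difference 0.96 ± 0.23 (SE), adjusted p = 0.00714). In control Smad7 read 1071, 855 and 1233 at 56 days, against 1011, 949.6 and 1142 at 28 days. The mdx arrays did not overlap and the control arrays did. Bmp2, a bone morphogenetic ligand, read 195, 307 and 279.8 in mdx at 56 days, against 41.6, 51.8 and 145 in mdx at 28 days (1.48, adjusted p = 0.0328), with all 6 signals below the filter of 374.5. Tgfb1, the ligand, read 1144, 214 and 454 in mdx at 56 days, against 1032, 1169 and 1180.1 in mdx at 28 days. In control Tgfb1 read 156, 72.8 and 70.4 at 56 days, against 658, 745 and 315 at 28 days. It fell in control (-2.18, adjusted p = 0.00217) but did not pass in mdx (-1.15, adjusted p = 0.0591) or for the difference (1.02, adjusted p = 0.433). Among 21 matrix proteases and inhibitors, Plat, the tissue plasminogen activator, fell in mdx (-0.90, adjusted p = 0.00661), and Mmp3, stromelysin, rose (1.85, adjusted p = 0.0206) at 634, 526 and 474 in mdx at 56 days, against 74.4, 199 and 132 in mdx at 28 days. Among 17 fibroblast genes 1 fell in mdx, a share near that of all probe sets. It was Thy1, a surface protein of fibroblasts, T cells and nerve (-0.94, adjusted p = 0.0395). Thy1 read 698, 596 and 955 in mdx at 56 days, against 1650.2, 1468 and 1233 in mdx at 28 days. S100a6 and Mgp, the brightest of the list, gave -0.33, adjusted p = 0.283, and 0.22, adjusted p = 0.484. Bmp2, Mmp3, Smad7 and Thy1 lost their calls without mdx replicate 1 at 28 days (adjusted p = 0.0651 to 0.159). Bmp2 and Thy1 lost their calls without mdx replicate 2 at 56 days or mdx replicate 2 at 28 days in turn (adjusted p = 0.0938 to 0.135). Mmp3 and Thy1 lost their calls without mdx replicate 1 at 56 days (adjusted p = 0.0612 to 0.0913). Bmp2 lost its call without mdx replicate 3 at 56 days (adjusted p = 0.0876). Bmp2 and Mmp3 lost their calls after quantile normalization (adjusted p = 0.0613 to 0.0966).

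Some vessel genes fell in mdx. Of 19 endothelial genes 0 rose and 5 fell in mdx, and 0 rose and 3 fell in control, against 5.9% and 2.67% of all probe sets that fell in mdx and in control. The summed signal of the list was 45556 to 57601 in mdx at 56 days, against 55013 to 67417 in mdx at 28 days, with overlap. The median log2 difference of the list was -0.26 in mdx (-0.27 after quantile normalization), against -0.23 in control. Icam2, an adhesion molecule of endothelium, read 567, 359 and 396 in mdx at 56 days, against 1167, 1078 and 976 in mdx at 28 days (log2 difference -1.25 ± 0.25 (SE), adjusted p = 0.00274). Vwf, the von Willebrand factor, read 1149, 1163 and 1162 in mdx at 56 days, against 2252, 2173 and 1959.5 in mdx at 28 days (log2 difference -0.86 ± 0.20 (SE), adjusted p = 0.00675). In control Vwf read 2099, 2852 and 2049.5 at 56 days, against 2150, 2909 and 2759 at 28 days. For both genes the mdx arrays did not overlap. Nos3, the endothelial nitric oxide synthase, fell in mdx (-1.64, adjusted p = 0.0131) and in control (-1.68, adjusted p = 0.0223). Eng, the TGF-beta co-receptor endoglin (-0.63, adjusted p = 0.0217), and Aqp1, a water channel of capillaries (-0.75, adjusted p = 0.0269), also fell, though a second Aqp1 probe set gave 0.88, adjusted p = 0.337, while Cav1, caveolin 1, did not pass (-0.14, adjusted p = 0.597). Aqp1, Eng and Nos3 lost their calls without mdx replicate 3 at 56 days (adjusted p = 0.0667 to 0.0937). Aqp1 and Eng lost their calls without mdx replicate 1 at 28 days (adjusted p = 0.0857 to 0.0905). Aqp1 and Nos3 lost their calls without mdx replicate 2 at 56 days or mdx replicate 2 at 28 days in turn (adjusted p = 0.059 to 0.195). Eng lost its call without mdx replicate 1 at 56 days or mdx replicate 3 at 28 days in turn (adjusted p = 0.0504 to 0.053). Eng lost its call after quantile normalization (adjusted p = 0.0503). Nos3 lost its call in control without control replicate 2 or 3 at 56 days or control replicate 2 or 3 at 28 days in turn (adjusted p = 0.0863 to 0.133). Nos3 lost its call in control with the Gapdh ratio as a covariate (adjusted p = 0.0918).

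Of 9 smooth muscle and pericyte genes 2 rose and 2 fell in mdx, against 9.48% and 5.9% of all probe sets. In control 0 rose and 0 fell. Acta2, the smooth muscle actin that myofibroblasts also make, read 4785, 5014 and 3682 in mdx at 56 days, against 7398, 6494 and 6613 in mdx at 28 days and fell (-0.61, adjusted p = 0.0489), as did Smtn, smoothelin (-0.93, adjusted p = 0.0466). Actg2, the enteric actin, read 4182, 4126 and 3551 in mdx at 56 days, against 2370.3, 956 and 1310.4 in mdx at 28 days and rose (log2 difference 1.43 ± 0.25 (SE), adjusted p = 0.00129), on a probe set whose name marks a shared sequence family. Of the Schwann cell list, Pmp22, a myelin protein also made by fibroblasts, read 3542, 2697 and 2548 in mdx at 56 days, against 5096, 5976 and 4836 in mdx at 28 days and fell in mdx (log2 difference -0.86 ± 0.14 (SE), adjusted p = 0.00078) and in control (-0.83, adjusted p = 0.000656). Sox10, the Schwann cell regulator, rose (0.78, adjusted p = 0.0326), and Mbp, the myelin basic protein, did not pass (-0.29, adjusted p = 0.463) on this probe set and rose on another (1.06, adjusted p = 0.0157). The mesothelium covers both faces of the diaphragm, and 2 of its 8 genes fell in mdx, where 5.9% of all probe sets fell. In control 0 of the 8 passed. Msln, mesothelin, read 161, 125 and 146 in mdx at 56 days, against 1115, 748 and 567 in mdx at 28 days (log2 difference -2.21 ± 0.48 (SE), adjusted p = 0.00437). In control Msln read 1032, 593 and 332 at 56 days, against 869, 817 and 406 at 28 days. Krt19, a keratin of simple epithelia, read 80.4, 70.5 and 474 in mdx at 56 days, against 585, 823 and 611 in mdx at 28 days (-1.95, adjusted p = 0.0126). In control Krt19 read 1265, 1234 and 1099 at 56 days, against 969, 1081 and 780.2 at 28 days. Upk3b, the brightest mesothelial gene measured, gave -0.13, adjusted p = 0.548, and the summed signal of the list was 5952 to 6295 in mdx at 56 days, against 6633 to 7217 at 28 days. Acta2, Krt19, Smtn and Sox10 lost their calls without mdx replicate 2 at 56 days (adjusted p = 0.0604 to 0.135). Acta2, Smtn and Sox10 lost their calls without mdx replicate 3 at 56 days or mdx replicate 1 or 2 at 28 days in turn (adjusted p = 0.0621 to 0.188). Acta2 and Krt19 lost their calls without mdx replicate 1 at 56 days (adjusted p = 0.0596 to 0.0691). Acta2 and Smtn lost their calls without mdx replicate 3 at 28 days (adjusted p = 0.0736 to 0.0965). Acta2, Smtn and Sox10 lost their calls after quantile normalization (adjusted p = 0.0792 to 0.101). Acta2 and Smtn lost their calls with the Gapdh ratio as a covariate (adjusted p = 0.0667 to 0.0688).

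Macrophage genes passed in 2 of 30 members in mdx, where 15.4% of all probe sets passed. Of the list 1 rose and 1 fell in mdx, and 0 rose and 0 fell in control, with a median log2 difference of 0.09 in mdx (-0.03 after quantile normalization) and 0.07 in control. The summed signal of the list was 81793 to 100907 in mdx at 56 days and 73181 to 130391 in mdx at 28 days, against 30251 to 35688 in control at 56 days and 28235 to 33223 in control at 28 days. Lyz2, lysozyme, read 19080, 20600 and 17759 in mdx at 56 days, against 12813, 15909 and 21918 in mdx at 28 days (0.21, adjusted p = 0.473), and Ctss, cathepsin S, read 16070, 16031 and 12751 in mdx at 56 days, against 15436, 15755 and 25439 in mdx at 28 days (-0.30, adjusted p = 0.325). Both overlapped between the ages. Cd52, a leukocyte surface protein, fell (-0.85, adjusted p = 0.0102), and Rac2, a GTPase of the phagocyte oxidase, rose (0.94, adjusted p = 0.0157). Of 12 genes of alternatively activated macrophages, 0 passed in mdx by limma, and Apoe and Npc2, the brightest, gave -0.26, adjusted p = 0.682, and -0.08, adjusted p = 0.798. Of 19 chemokine and cytokine genes 0 passed in mdx by limma, 12 had a positive difference and the median was 0.27 (0.20 after quantile normalization), and Cxcl12 and Tnfrsf1a gave -0.30, adjusted p = 0.198, and -0.20, adjusted p = 0.442, although a dimmer Tnfrsf1a probe set rose (1.53, adjusted p = 0.00854). Of 13 class II antigen presentation genes 0 rose and 1 fell in mdx, and 0 rose and 0 fell in control, with a median of 0.44 in mdx (0.29 after quantile normalization), and the member that fell was Ctsh, cathepsin H (-0.65, adjusted p = 0.0149). Of 25 class I antigen presentation and interferon genes 1 passed, with a median of -0.04 in mdx, and of 10 complement genes 1 passed, with a median of 0.07: Irf7, an interferon regulator, rose (0.85, adjusted p = 0.0288) while its other probe set did not pass (-0.27, adjusted p = 0.616), and C1ra, a complement protease, rose (0.81, adjusted p = 0.0038) while its other probe set did not pass (-0.09, adjusted p = 0.855). Over all 35 probe sets of the class I and interferon genes 2 rose in mdx, and the median had the other sign, at 0.17. Cd52, Ctsh and Irf7 lost their calls without mdx replicate 3 at 56 days (adjusted p = 0.061 to 0.115). Ctsh, Irf7 and Rac2 lost their calls without mdx replicate 1 at 28 days (adjusted p = 0.0533 to 0.171). Cd52 and Ctsh lost their calls without mdx replicate 3 at 28 days (adjusted p = 0.053 to 0.0538). Irf7 and Rac2 lost their calls without mdx replicate 2 at 28 days (adjusted p = 0.0688 to 0.101). Irf7 lost its call without mdx replicate 2 at 56 days (adjusted p = 0.0789). Irf7 lost its call after quantile normalization (adjusted p = 0.084).

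Genes of B and plasma cells, which make antibodies, rose in some members in both genotypes. Of 12 members 2 rose and 0 fell in mdx, and 3 rose and 0 fell in control, against 9.48% and 1.18% of all probe sets that rose in mdx and in control. Over the list the median log2 difference was 0.44 in mdx (0.21 after quantile normalization), against 0.67 in control. Cd79a, a signalling chain of the B cell receptor, read 1029, 1584 and 1309.5 in mdx at 56 days, against 285, 501 and 569.6 in mdx at 28 days (log2 difference 1.50 ± 0.35 (SE), adjusted p = 0.00711). In control Cd79a read 1209.7, 1307 and 1419 at 56 days, against 809.7, 986 and 700.2 at 28 days. Jchain, which joins antibody units, read 1917, 1742 and 2279.7 in mdx at 56 days, against 939, 919 and 333 in mdx at 28 days (1.52, adjusted p = 0.0168). In control Jchain read 3228, 4569 and 3334 at 56 days, against 645, 2023 and 1538 at 28 days. Jchain also rose in control (1.51, adjusted p = 0.0379), with a difference between genotypes of 0.01 ± 0.60. Ighm, the heavy chain of IgM, gave 0.90, adjusted p = 0.0956, on its brightest probe set. Another probe set rose in mdx (1.55, adjusted p = 0.00264) and in control (1.29, adjusted p = 0.0133). The further Ighm probe sets did not pass in mdx, at 1.82, 0.68, 0.64, 0.32, -0.08 and -0.18. Cd24a gave 0.02, adjusted p = 0.947 in mdx and rose in control (0.68, adjusted p = 0.017). The 9 genes of the T and NK cell list had 1 rise and 1 fall in mdx, against 9.48% and 5.9% of all probe sets. The rise was Cd27, a costimulatory receptor (1.18, adjusted p = 0.0208), and the fall Thy1, given above, while Satb1 did not pass (0.19, adjusted p = 0.547). The 13 genes of the neutrophil and mast cell list also had 1 rise and 1 fall in mdx, against the same shares. Lcn2, lipocalin 2, rose (1.11, adjusted p = 0.0423), and its other probe set gave 0.15, adjusted p = 0.816. Hdc, the histamine-making enzyme, fell (-1.39, adjusted p = 0.0314), and the mast cell proteases Tpsb2 and Cma1 did not pass (0.36, adjusted p = 0.393, and -0.23, adjusted p = 0.484). Cd27, Cd79a, Hdc and Lcn2 lost their calls without mdx replicate 1 at 28 days (adjusted p = 0.0617 to 0.127). Cd27, Hdc and Lcn2 lost their calls without mdx replicate 1 at 56 days or mdx replicate 2 at 28 days in turn (adjusted p = 0.0512 to 0.124). Cd27 and Jchain lost their calls without mdx replicate 3 at 56 days (adjusted p = 0.0561 to 0.0691). Hdc and Lcn2 lost their calls without mdx replicate 2 at 56 days (adjusted p = 0.105 to 0.152). Jchain and Lcn2 lost their calls without mdx replicate 3 at 28 days (adjusted p = 0.0741 to 0.0998). Cd27 and Lcn2 lost their calls after quantile normalization (adjusted p = 0.0555 to 0.097). Lcn2 lost its call with the Gapdh ratio as a covariate (adjusted p = 0.0603). Cd24a and Jchain lost their calls in control without control replicate 1 at 56 days or control replicate 1 or 3 at 28 days in turn (adjusted p = 0.0565 to 0.245). Jchain lost its call in control without control replicate 2 or 3 at 56 days in turn (adjusted p = 0.0743 to 0.161). Jchain lost its call in control after quantile normalization (adjusted p = 0.0544). Jchain lost its call in control with the Gapdh ratio as a covariate (adjusted p = 0.1).

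Cell cycle genes had negative medians in both genotypes. Of 30 members 1 rose and 3 fell in mdx, against 9.48% and 5.9% of all probe sets. In control 0 rose and 3 fell, against 1.18% and 2.67% of all probe sets. The median was -0.33 in mdx (-0.45 after quantile normalization) and -0.40 in control. Cdk1, the mitotic kinase, read 555, 303 and 131 in mdx at 56 days, against 1222, 1111 and 1314 in mdx at 28 days and fell in mdx (-1.97, adjusted p = 0.0118) and in control (-1.81, adjusted p = 0.0382). Ccnd2, cyclin D2 (-1.54, adjusted p = 0.00709), and Birc5, the mitotic protein survivin (-1.005, adjusted p = 0.035), also fell in mdx. Mki67, the proliferation marker, went both ways on its 2 probe sets, at 1.28, adjusted p = 0.00808 and -1.003, adjusted p = 0.113, so that no direction can be given. Prc1, of the dividing spindle, fell in mdx (-1.39, adjusted p = 0.0135) and in control (-2.25, adjusted p = 0.000416). Of 29 proteasome and ubiquitin genes 0 rose and 5 fell in mdx, where 5.9% of all probe sets fell. In control 1 rose and 1 fell. Psmd4, the ubiquitin receptor of the proteasome, read 5549, 4278 and 4495 in mdx at 56 days, against 9770.3, 8598 and 8081 in mdx at 28 days and fell in mdx (-0.89, adjusted p = 0.00791) and in control (-0.85, adjusted p = 0.0184). The other falls in mdx were Psma7 (-0.53, adjusted p = 0.0149), Psma6 (-0.58, adjusted p = 0.0234), Psmb3 (-0.53, adjusted p = 0.0314) and Psmc2 (-0.62, adjusted p = 0.0431). Birc5, Psma6, Psma7, Psmb3 and Psmc2 lost their calls without mdx replicate 1 at 28 days (adjusted p = 0.08 to 0.148). Birc5, Cdk1, Prc1 and Psmc2 lost their calls without mdx replicate 3 at 56 days (adjusted p = 0.0639 to 0.105). Birc5, Psma6, Psma7 and Psmb3 lost their calls without mdx replicate 1 at 56 days (adjusted p = 0.079 to 0.241). Birc5, Psma6 and Psmc2 lost their calls without mdx replicate 2 at 28 days (adjusted p = 0.0677 to 0.12). Prc1, Psma6 and Psmc2 lost their calls without mdx replicate 2 at 56 days (adjusted p = 0.0551 to 0.157). Birc5 and Psmb3 lost their calls without mdx replicate 3 at 28 days (adjusted p = 0.0746 to 0.084). Psmb3 and Psmc2 lost their calls after quantile normalization (adjusted p = 0.0619 to 0.109). Psmc2 lost its call with the Gapdh ratio as a covariate (adjusted p = 0.0684). Cdk1 and Psmd4 lost their calls in control without control replicate 1 or 3 at 56 days or control replicate 3 at 28 days in turn (adjusted p = 0.0697 to 0.219). Cdk1 lost its call in control without control replicate 2 at 56 days or control replicate 1 or 2 at 28 days in turn (adjusted p = 0.0565 to 0.0674). Cdk1 lost its call in control after quantile normalization (adjusted p = 0.059). Cdk1 and Psmd4 lost their calls in control with the Gapdh ratio as a covariate (adjusted p = 0.0998 to 0.135).

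Among 15 genes of the dystrophin complex and costamere, Sspn, the complex member sarcospan, read 6463, 6153 and 6851 in mdx at 56 days, against 10542, 11314 and 9005 in mdx at 28 days and fell (log2 difference -0.66 ± 0.13 (SE), adjusted p = 0.00265), and Itga7, the laminin-binding integrin of muscle, read 4742, 4787 and 4137 in mdx at 56 days, against 2567, 2763 and 3432 in mdx at 28 days and rose (0.64, adjusted p = 0.0195), while a second Itga7 probe set did not pass (0.03, adjusted p = 0.912). Among 13 genes of calcium handling and excitation, Kcna5, a potassium channel, fell in mdx (-0.99, adjusted p = 0.0014) and in control (-0.97, adjusted p = 0.0015). Cacna1s, the voltage sensor of contraction, read 9343, 8759.8 and 9951 in mdx at 56 days, against 14312, 12863 and 12451 in mdx at 28 days and fell in mdx (-0.50, adjusted p = 0.0113), with -0.02 (adjusted p = 0.961) in control. Dmd itself read 193, 182 and 244 in mdx at 56 days, against 271, 293 and 337 in mdx at 28 days. In control Dmd read 800.2, 551 and 669 at 56 days, against 454, 482 and 533 at 28 days. The mdx arrays of 56 days lay below those of 28 days and the control arrays of 56 days above those of 28 days, but neither change passed (-0.48, adjusted p = 0.264 in mdx, and 0.42, adjusted p = 0.507 in control), nor did the difference (-0.91, adjusted p = 0.332); this pattern of arrays was found in 46 of the 9291 probe sets (0.495%). Every mdx array read below every control array of either age on the single Dmd probe set tested. Utrn, utrophin, the relative that can stand in for dystrophin, gave 0.18, adjusted p = 0.682 and 0.12, adjusted p = 0.853 on its 2 probe sets in mdx. Cacna1s and Itga7 lost their calls without mdx replicate 1 at 28 days (adjusted p = 0.0708 to 0.108). Itga7 lost its call without mdx replicate 1 or 2 at 56 days or mdx replicate 2 at 28 days in turn (adjusted p = 0.0544 to 0.0627). Cacna1s lost its call after quantile normalization (adjusted p = 0.0715).

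**Figure D5:**
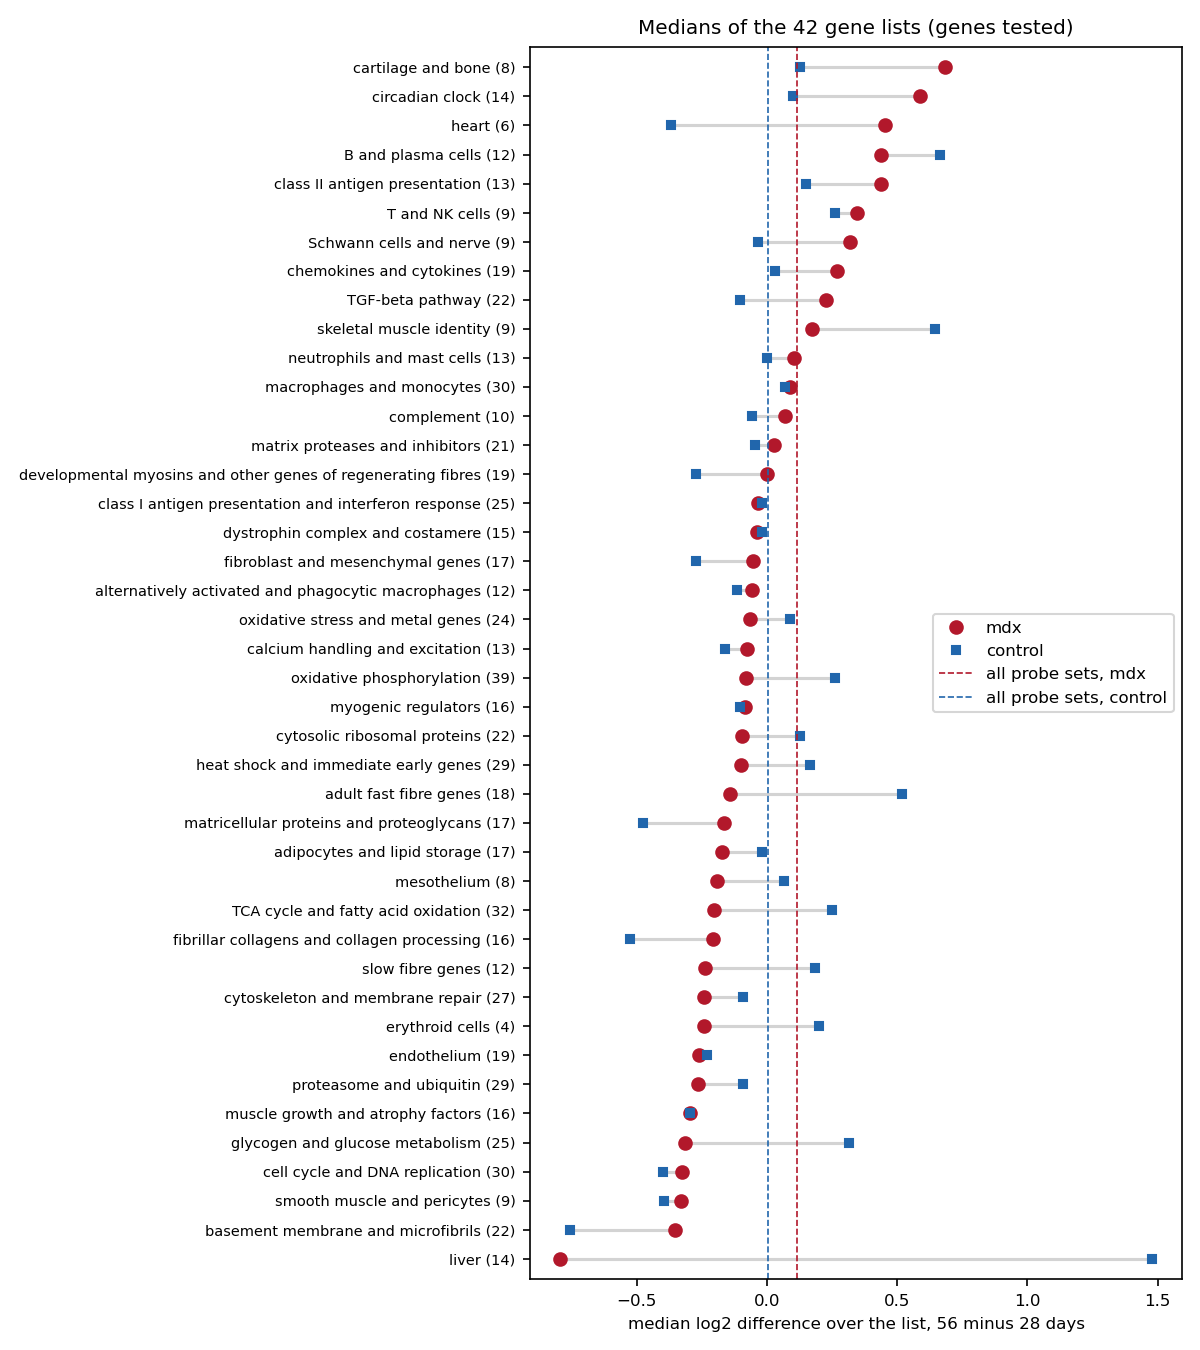
Median log2 difference between 56 and 28 days over each of 42 gene lists in mdx (circles) and control (squares), ordered by mdx, with the number of genes tested in brackets and dashed lines at the medians of all probe sets, 0.11 in mdx and 0.00 in control. The clock list lies right in mdx, at 0.59, the matrix lists lie further left in control than in mdx, and the metabolic lists lie left in mdx and right in control on these deposited values, though after quantile normalization their control medians were 0.01, 0.08 and 0.01.

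Among called probe sets with 1 gene symbol whose arrays of the 2 ages did not overlap, the 15 largest rises in mdx had log2 differences of 2.15 to 2.81 and the 15 largest falls of -1.97 to -2.34, and 12 of each 15 came from the dimmest tertile of probe sets. Inmt, an amine methyltransferase, rose most, and read 2088, 2288 and 3199.5 in mdx at 56 days, against 466, 526 and 136 in mdx at 28 days (log2 difference 2.81 ± 0.37 (SE), adjusted p = 8.48e-05). In control Inmt read 2862, 3659 and 2078 at 56 days, against 1063, 1048 and 1409 at 28 days. Its control arrays were also higher at 56 days without overlap (1.24, adjusted p = 0.0533). The other rises were Prp2 (2.75), Hus1 (2.56), Adgre5 (2.49), Igh-VS107 (2.36), Bphl (2.35), Insr (2.35), Rnf220 (2.28), Kars (2.26), Orm3 (2.24), Htatsf1 (2.23), Aplp2 (2.23), Mtx1 (2.19), Esrrb (2.17) and Rpl19 (2.15). Over the 15 rises, mean signals at 28 days ran from 25.3 to 509, and 10 of the 15 had another tested probe set. That other probe set was called in the same direction for 1 of the 10, Igh-VS107, an antibody variable segment (1.53, adjusted p = 0.013). Of others, Rnf220, a ubiquitin ligase, fell on its other probe set (-0.59, adjusted p = 0.0155), as did Htatsf1, a transcription elongation factor (-0.45, adjusted p = 0.0351), Rpl19, a ribosomal protein, gave -0.10, adjusted p = 0.807, Adgre5, a leukocyte adhesion receptor, gave -0.27, adjusted p = 0.657, and Aplp2, a relative of the amyloid precursor, gave -0.20, adjusted p = 0.435. Aplp2, Bphl, Htatsf1, Igh-VS107, Prp2, Rnf220 and Rpl19 lost their calls without mdx replicate 1 at 28 days (adjusted p = 0.0708 to 0.167). Aplp2, Bphl, Htatsf1, Igh-VS107, Rnf220 and Rpl19 lost their calls without mdx replicate 3 at 56 days (adjusted p = 0.0651 to 0.148). Aplp2, Bphl, Htatsf1, Prp2 and Rnf220 lost their calls without mdx replicate 2 at 56 days (adjusted p = 0.0674 to 0.106). Bphl, Igh-VS107, Prp2, Rnf220 and Rpl19 lost their calls without mdx replicate 2 at 28 days (adjusted p = 0.0725 to 0.097). Bphl, Igh-VS107, Prp2 and Rpl19 lost their calls without mdx replicate 1 at 56 days (adjusted p = 0.0928 to 0.129). Bphl and Igh-VS107 lost their calls without mdx replicate 3 at 28 days (adjusted p = 0.0558 to 0.0764). Aplp2, Bphl, Igh-VS107, Rnf220 and Rpl19 lost their calls after quantile normalization (adjusted p = 0.0599 to 0.102).

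The largest falls were Anp32a (-2.34), Adprhl2 (-2.26), B3gnt2 (-2.24), Msln (-2.21), Ppie (-2.20), Kif20a (-2.20), Ces1d (-2.15), Gramd3 (-2.13), Eln (-2.13), Ppp2r5d (-2.12), Abhd8 (-2.11), Rcan3 (-2.09), Wnt4 (-2.09), Nolc1 (-2.03) and Cdk1 (-1.97). Adprhl2, which removes ADP-ribose from proteins, read 172, 159 and 117 in mdx at 56 days, against 923, 796 and 782 in mdx at 28 days. In control Adprhl2 read 136, 114 and 161 at 56 days, against 665, 643 and 438 at 28 days. It fell in both genotypes (-2.26, adjusted p = 0.000231 in mdx, -1.85, adjusted p = 0.00119 in control). B3gnt2, a sugar transferase (-2.05, adjusted p = 0.0212 in control), Eln and Cdk1 also fell in both. Ces1d, a carboxylesterase of fat and liver, fell in mdx without overlap, at 53.5, 95.5 and 259 in mdx at 56 days, against 659, 713 and 509.8 in mdx at 28 days (-2.15, adjusted p = 0.00437), while its control arrays were higher at 56 days without overlap (1688, 1453 and 1804 at 56 days, 1089, 1279 and 1277 at 28 days), and the difference did not pass (-2.58, adjusted p = 0.091). Wnt4, a signalling ligand of muscle and its nerve contacts, read 99, 167 and 98 in mdx at 56 days, against 588, 719 and 526 in mdx at 28 days (-2.09, adjusted p = 0.0032). Of these 15 genes 7 had another tested probe set, and for 1 of them, Eln, it was also called as a fall. The other probe sets of Anp32a (0.08, adjusted p = 0.742), Adprhl2 (0.13, adjusted p = 0.886) and B3gnt2 (0.63, adjusted p = 0.404) lay on the other side of 0 in mdx. Anp32a lost its call without mdx replicate 1 or 3 at 56 days or mdx replicate 1 or 2 or 3 at 28 days in turn (adjusted p = 0.0673 to 0.178). Anp32a lost its call after quantile normalization (adjusted p = 0.0523). B3gnt2 lost its call in control without control replicate 1 or 3 at 56 days or control replicate 1 or 2 or 3 at 28 days in turn (adjusted p = 0.0578 to 0.085). B3gnt2 lost its call in control with the Gapdh ratio as a covariate (adjusted p = 0.0967).

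In control the 5 largest rises were Mup3, a major urinary protein (3.95), the kappa light chain segments Igkv6-14 (2.65), Igkv8-19 (2.18) and Igkv6-23 (2.17), and Trib3, a stress-induced pseudokinase (2.21). In mdx these gave 1.32, 0.88, 0.79, 0.95 and 1.10 in the same order, and 0 of the 5 passed on these probe sets. A second probe set of Igkv6-14 rose in mdx (1.65, adjusted p = 0.0166) and did not pass in control (0.90, adjusted p = 0.314). Another of Mup3 gave -0.57, adjusted p = 0.759 in mdx and 3.79, adjusted p = 0.0539 in control. The 5 largest falls were Mki67 on 1 probe set (-2.34), the imprinted RNA Meg3 (-2.28), Prc1 (-2.25), Pcsk5, a protease that activates growth factors (-2.19), and Tgfb1 (-2.18). In mdx they gave -1.003, -1.09, -1.39, -1.13 and -1.15, of which Prc1 passed on these probe sets. A second Meg3 probe set fell in mdx (-0.70, adjusted p = 0.0263) and in control (-1.40, adjusted p = 0.000132). Further Pcsk5 probe sets lay above 0 in mdx (0.94, adjusted p = 0.0962, and 0.41, adjusted p = 0.302). Both probe sets of Mki67 are given above. Mup3 is made by liver, and liver genes varied between arrays: Alb, albumin, read 347, 307 and 179 in mdx at 56 days, 5852.5, 838 and 269 in mdx at 28 days, 15483, 2577 and 668 in control at 56 days and 526, 169 and 457 in control at 28 days. Of 14 liver genes 0 passed in mdx or in control by limma, while 10 had a negative difference in mdx, with a median of -0.80, and 14 a positive one in control, with a median of 1.48. The median of the difference between genotypes over the liver genes was -2.31, and the mdx median without mdx replicate 1 at 28 days was 0.10. The part of these genes in the mdx calls was not tested. In other results it was tested only by the fit without the arrays high in albumin. The brightest liver gene, Cyp2e1, an oxidase, gave 1.24, adjusted p = 0.0682 in mdx and 1.52, adjusted p = 0.0645 in control, and Hp, haptoglobin, gave 0.21, adjusted p = 0.811 in mdx. Without the arrays whose albumin signal was above 10000, 1053 probe sets rose and 737 fell in mdx. No mdx array of the 2 ages was above that limit. The mdx log2 differences were therefore unchanged in that fit, and only the shared estimate of the spread moved. Igkv6-14, Igkv6-23, Igkv8-19, Meg3, Mup3 and Trib3 lost their calls in control without control replicate 2 at 56 days or control replicate 1 at 28 days in turn (adjusted p = 0.0565 to 0.293). Igkv6-23, Igkv8-19, Mup3 and Trib3 lost their calls in control without control replicate 1 at 56 days (adjusted p = 0.0639 to 0.248). Igkv6-23, Meg3, Mup3 and Trib3 lost their calls in control without control replicate 3 at 28 days (adjusted p = 0.0539 to 0.159). Meg3, Mup3 and Trib3 lost their calls in control without control replicate 2 at 28 days (adjusted p = 0.0665 to 0.101). Igkv6-23 and Meg3 lost their calls in control without control replicate 3 at 56 days (adjusted p = 0.0549 to 0.0731). Igkv6-23 and Mup3 lost their calls in control after quantile normalization (adjusted p = 0.0747 to 0.0919). Igkv6-23, Igkv8-19, Mup3 and Trib3 lost their calls in control with the Gapdh ratio as a covariate (adjusted p = 0.0649 to 0.307).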

How the data were processed

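The deposited table holds the intensity of 12488 probe sets on a linear scale, 1 column for each of 36 arrays; per the labels, the array maker's standard protocol was used, and the sources used here name no software. The mean between percentiles 2 and 98 was 1499.2 to 1499.7 in every column, so the deposited values had been brought to a common level. The 66 control probe sets were left out; 10833 others had 1 gene symbol in the platform annotation, 396 several and 1193 none, and those with several or none were tested but not named.

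Probe sets above 374.5 (percentile 40) on at least 3 arrays were kept, which left 9291 covering 6794 genes. limma 3.58.1 in R 4.3.3 fitted log2(value + 32) with 12 group means, variances moderated along a trend on signal (24 residual degrees of freedom), and gave mdx at 56 minus 28 days, the same in control, and their difference; adjusted p-values are Benjamini-Hochberg over all 9291. The number of arrays limits the precision. The fit was tested on simulated data.

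The comparison, the 42 gene lists (713 genes tested, each by its brightest probe set) and the rules were chosen with earlier results of these data known. Genes named are Dmd and Utrn, the 15 largest rises and falls in mdx, the 10 largest positive and negative differences, the 5 largest control rises and falls (called, arrays not overlapping), and per list the 6 called members with the lowest adjusted p or else the 2 brightest, plus the 2 brightest of other cell types. Further list members were named after their values were seen. Alternatives were pseudocounts of 10 and 100, a stricter filter (percentile 60) or none, array weights, quantile normalization, a replicate block, fits on fewer arrays, control probe set ratios as covariates, and each array left out. Promoters are from RefSeq.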

Additional observations from a re-analysis of the deposited data

Results flagged for a closer look

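For 8 probe sets the change between 28 and 56 days differed between genotypes by limma's test of the difference. The log2 difference (mdx minus control) was 1.81 for Postn, 1.29 for Col3a1, 1.24 for Ndrg4, 1.22 for Actc1, 1.03 for Col6a3 and 1.02 for Col1a2, and it was -0.83 for Adcy2 and -0.73 for Abcd3. For 5 more named genes all mdx arrays of 56 days lay below those of 28 days while all control arrays of 56 days lay above those of 28 days, a pattern of 46 of all 9291 probe sets (0.495%), and the difference did not pass the test: it was -0.91 for Dmd (adjusted p = 0.332), -2.58 for Ces1d (adjusted p = 0.091), -0.88 for Slc25a20 (adjusted p = 0.0573), -2.30 for Krt19 (adjusted p = 0.176) and -1.62 for Alpl, an alkaline phosphatase of bone (adjusted p = 0.184). Alpl read 424, 193 and 251 in mdx at 56 days, against 794, 868 and 682 in mdx at 28 days. In control Alpl read 1366, 1201 and 1263 at 56 days, against 1138, 971 and 1177 at 28 days. It fell in mdx (-1.40, adjusted p = 0.013), a call that ended without mdx replicate 1 at 28 days (adjusted p = 0.0537) and without replicate 2 at 56 days (adjusted p = 0.0619). Groups of 3 arrays are too small for the test of outlying samples.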

How the results depend on the processing

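The 213 calls of single genes checked (138 in mdx, 67 in control, 8 for the difference) kept their sign in every alternative that tested them, and the number that ended was 55 under quantile normalization, 64 in fits on a comparison's own arrays, 39 on the 12 arrays of both ages, 26 without arrays high in albumin, 46 with the Gapdh and 32 with the actin ratio as a covariate, 26 without a filter, 6 with array weights and 2 or 3 with other pseudocounts. Single arrays mattered as well: without mdx replicate 1 at 28 days 80 of the calls tested ended and 66 held. Leaving out each other mdx array in turn ended 32 to 51 calls, and each control array 20 to 33. The totals moved too. In mdx array weights gave 2230 calls (918 falls), quantile normalization 552 rises, and own arrays alone 345 falls. In control array weights gave 925 calls (363 rises, 562 falls) and the Gapdh ratio 144 (50 rises, 94 falls). For the difference of the age changes, calls numbered 16 (10 positive, 6 negative) at pseudocount 100, 5 without a filter (0 negative by limma; the deposited values had 1295 at an unadjusted p under 0.05), 24 (13 positive, 11 negative) at percentile 60, 18 (10 positive, 8 negative) after quantile normalization, 216 (130 positive, 86 negative) with array weights, 1 (positive, 0 negative) on the 12 arrays or own arrays alone, 3 (positive, 0 negative) with the Gapdh ratio and 16 (11 positive, 5 negative) without arrays high in albumin. Leaving out 1 array gave 412 to 1337 calls in mdx (207 to 872 rises, 205 to 470 falls), 153 to 266 in control (38 to 110 rises, 114 to 183 falls) and 2 to 28 for the difference (2 to 19 positive, 0 to 16 negative).

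With the replicate number as a block, mdx had 1360 calls (836 rises, 524 falls), control 358 (111 rises, 247 falls) and the difference 5 (5 positive, 0 negative), and 14 of the 213 calls ended. Across all probe sets same-numbered arrays did not deviate together (correlations of their deviations from the group means of -0.09, -0.15 and -0.06 in mdx, 0.05, 0.08 and 0.05 in control). Albumin was nevertheless highest on replicate 1 in each group used here, at 347 and 5852.5 in mdx and 15483 and 526 in control (56 and 28 days). Whether same-numbered arrays were handled together was not tested. Dim probe sets limit what can be read, since most of the largest changes came from them.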

Other observations

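Stress and antioxidant genes passed in single members in mdx. Of 24 oxidative stress and metal genes 2 rose and 2 fell in mdx, against 9.48% and 5.9% of all probe sets. In control 2 rose and 1 fell, against 1.18% and 2.67% of all probe sets. Hmox1, the haem-degrading enzyme, read 5441, 5027 and 3968 in mdx at 56 days, against 2130.3, 3097 and 2813 in mdx at 28 days and rose (0.84, adjusted p = 0.00711), as did Gpx1, a glutathione peroxidase (1.09, adjusted p = 0.00484). Txn1, thioredoxin, fell in mdx (-0.78, adjusted p = 0.00265) and in control (-0.60, adjusted p = 0.0207), and Gstm2, a glutathione transferase, fell (-1.12, adjusted p = 0.0221) on 1 probe set and rose on another (1.75, adjusted p = 0.014). Of 29 heat shock and immediate early genes 1 rose and 1 fell in mdx, and 2 rose and 4 fell in control, with Fosb rising (1.11, adjusted p = 0.00943) and the chaperone Hsp90aa1 falling (-0.60, adjusted p = 0.041). Of 22 cytosolic ribosomal protein genes, Rps29 (0.90, adjusted p = 0.0229) and Rps14 (1.75, adjusted p = 0.0402) rose and Rpl13a fell (-0.72, adjusted p = 0.0113) in mdx. Fosb, Gpx1, Gstm2, Hmox1, Hsp90aa1, Rps14 and Rps29 lost their calls without mdx replicate 1 at 28 days (adjusted p = 0.0505 to 0.0901). Gstm2, Hsp90aa1, Rps14 and Rps29 lost their calls without mdx replicate 2 at 56 days (adjusted p = 0.0619 to 0.11). Gstm2, Hsp90aa1 and Rps14 lost their calls without mdx replicate 2 at 28 days (adjusted p = 0.0843 to 0.174). Gstm2, Rps14 and Rps29 lost their calls without mdx replicate 1 at 56 days (adjusted p = 0.0532 to 0.108). Hsp90aa1, Rpl13a and Rps29 lost their calls without mdx replicate 3 at 28 days (adjusted p = 0.0609 to 0.0909). Hsp90aa1 lost its call without mdx replicate 3 at 56 days (adjusted p = 0.132). Hsp90aa1, Rps14 and Rps29 lost their calls after quantile normalization (adjusted p = 0.0651 to 0.108). Hsp90aa1 and Rps14 lost their calls with the Gapdh ratio as a covariate (adjusted p = 0.0625 to 0.0667).

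Of 16 myogenic regulators 1 rose and 3 fell in mdx, against 9.48% and 5.9% of all probe sets. In control 1 rose and 2 fell, against 1.18% and 2.67% of all probe sets. Id1, an inhibitor of muscle differentiation factors, fell (-0.73, adjusted p = 0.017), as did Mef2c, a muscle transcription factor, on its brightest probe set (-0.64, adjusted p = 0.0321), with -0.12, adjusted p = 0.644, -0.65, adjusted p = 0.1 and 0.12, adjusted p = 0.73 on the others. Cdkn1c, an imprinted brake on the cell cycle, fell in mdx (-0.49, adjusted p = 0.0321) and in control (-1.46, adjusted p = 5.91e-07), and the difference missed the threshold (0.97, adjusted p = 0.0594), at 9413, 8597 and 7907 in mdx at 56 days, against 12974, 10819 and 12675 in mdx at 28 days. In control Cdkn1c read 2378, 2158 and 2313 at 56 days, against 6759, 7198 and 5253 at 28 days. Rb1, the retinoblastoma gene, rose in mdx (0.59, adjusted p = 0.0305) and in control (0.68, adjusted p = 0.0301). Of 27 cytoskeleton and membrane repair genes, Anxa6 rose (0.48, adjusted p = 0.0212), and Anxa2 (-0.62, adjusted p = 0.0479), S100a10 (-0.52, adjusted p = 0.013) and S100a13 (-0.34, adjusted p = 0.0351) fell in mdx. Other probe sets on the other side of 0 gave 0.93, adjusted p = 0.309 for S100a10 and 0.05, adjusted p = 0.853 for S100a13. Of 6 heart genes, Mybpc3, the cardiac myosin binding protein, rose in mdx (1.04, adjusted p = 0.0107), with 0.42 (adjusted p = 0.441) in control, while Gja1 and Nppa gave -0.01, adjusted p = 0.946, and 0.56, adjusted p = 0.126 in mdx. Adipocyte and erythroid genes passed in 0 members in mdx by limma, with -0.20, adjusted p = 0.675 for Scd1, -0.08, adjusted p = 0.832 for Cebpa, 0.30, adjusted p = 0.772 for Hba-a1 and -0.82, adjusted p = 0.0615 for Alas2, though another Scd1 probe set fell (-1.43, adjusted p = 0.00803). Of 8 cartilage and bone genes Alpl fell, and Chad and Col9a2 gave 0.46, adjusted p = 0.116, and 0.55, adjusted p = 0.129, and Cdh1 of the mesothelial list gave 0.68, adjusted p = 0.0654. Anxa2, Anxa6, Cdkn1c, Mef2c, Rb1 and S100a13 lost their calls without mdx replicate 1 at 28 days (adjusted p = 0.0769 to 0.156). Anxa2, Cdkn1c, Rb1, S100a10 and S100a13 lost their calls without mdx replicate 3 at 56 days (adjusted p = 0.0867 to 0.163). Anxa2, Anxa6, Cdkn1c and S100a13 lost their calls without mdx replicate 3 at 28 days (adjusted p = 0.0701 to 0.122). Anxa2, Mef2c, Rb1 and S100a13 lost their calls without mdx replicate 1 at 56 days (adjusted p = 0.0835 to 0.183). Id1, Mef2c, Rb1 and S100a13 lost their calls without mdx replicate 2 at 28 days (adjusted p = 0.0725 to 0.116). Anxa6, Cdkn1c and Id1 lost their calls without mdx replicate 2 at 56 days (adjusted p = 0.0728 to 0.0918). Anxa2, Cdkn1c, Mef2c, Rb1, S100a10 and S100a13 lost their calls after quantile normalization (adjusted p = 0.0618 to 0.227).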
